A study of Mus musculus with 2 samples.

Results

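The matricellular proteins followed here are the products of 10 genes of the 32287 features counted: *Postn*, *Tnc*, *Thbs1*, *Thbs2*, *Thbs4*, *Sparc*, *Fn1*, *Ccn1*, *Ccn2* and *Comp*. They were taken by gene symbol from the feature lists of both libraries, where all 10 were found, and their unique molecular identifiers (UMIs, each standing for 1 captured transcript molecule) were summed per cell class and library. The 2 libraries are 3′ droplet single-cell RNA-Seq libraries of live cells sorted from mouse hind limb muscle 7 days after both peroneal nerves were injured. One came from muscle injected with an antibody that neutralizes secreted phosphoprotein 1 (SPP1-nAb) and the other from muscle injected with goat anti-mouse IgG, 2 µg in 10 µL into the tibialis anterior every 2 days, and the study asked what SPP1 signaling does during reinnervation. Both groups share the nerve injury, the injections and the sort.

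The labels describe male C57BL/6J mice aged 10 to 16 weeks, and the study's methods describe reporter mice in which an *S100* promoter drives GFP, so the strain is given differently in the sources used here. The collection protocol names the tibialis anterior and gastrocnemius, whereas the study describes this experiment in the tibialis anterior alone. The titles name GFP-positive cells, whereas GFP-positive and GFP-negative live cells were sorted, and cells with Schwann cell markers made up only 2.49% of the IgG cells and 2.41% of the SPP1-nAb cells. Muscle was pooled over male mice and the number of mice is not given in the sources used here. Each group is therefore 1 library with no replicate, no test between the groups is possible, and every interval below covers counting error only.

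Matricellular proteins are secreted into the extracellular matrix but act mainly as signals: they bind integrins, proteoglycans, growth factors and proteases and so alter how cells adhere, migrate and respond. Most are scarce in resting adult tissue and abundant during development and repair, and in muscle and nerve they are known from injured fascia, tendon, the satellite cell niche and nerve bridges. Fibronectin (*Fn1*) is usually classed as a structural matrix glycoprotein, and several of the others bind it.

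By role the 10 genes fall into 4 groups. Periostin (*Postn*, ENSMUSG00000027750, chr3:54268501-54298471 on the plus strand) and tenascin-C (*Tnc*, ENSMUSG00000028364, chr4:63878014-63965443 on the minus strand) are adhesion-modulating proteins of healing and developing connective tissue. The thrombospondins are *Thbs1* (ENSMUSG00000040152, chr2:117941974-117957616 on the plus strand) and *Thbs2* (ENSMUSG00000023885, chr17:14885761-14914528 on the minus strand), which bind CD36 and CD47 and inhibit angiogenesis, with *Thbs4* (ENSMUSG00000021702, chr13:92888095-92931501 on the minus strand) and cartilage oligomeric matrix protein (*Comp*, ENSMUSG00000031849, chr8:70826192-70834716 on the plus strand), which belong to tendon and cartilage matrix. The CCN proteins are *Ccn1* (ENSMUSG00000028195, chr3:145352720-145355738 on the minus strand) and *Ccn2* (ENSMUSG00000019997, chr10:24471333-24474900 on the plus strand), integrin ligands whose genes are textbook targets of the YAP and TEAD factors. Osteonectin (*Sparc*, ENSMUSG00000018593, chr11:55285317-55314067 on the minus strand) is a collagen-binding protein, and fibronectin is encoded by *Fn1* (ENSMUSG00000026193, chr1:71624673-71692419 on the minus strand). Coordinates are those of the whole gene in the GENCODE annotation of GRCm39, the build named in the labels, and all 10 are protein coding.

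Promoter sequences show where known control elements lie in genes whose levels are described together below. RefSeq start sites with 250 bases before and 50 after them were listed for 6 of the 10 genes (GRCm38.p6), and *Thbs1*, *Fn1*, *Ccn2* and *Comp* are not among them. Each sequence runs 5′ to 3′ on the gene's own strand, and capitals mark matches to GGAATG on either strand, the letters of a TEAD site, or to TATAAA on the sense strand, a TATA box. *Ccn1* is shown as the listed CCN gene, *Thbs4* as the tendon thrombospondin, and *Postn* for its downstream start.
Ccn1, chr3:145649936-145650235, minus strand: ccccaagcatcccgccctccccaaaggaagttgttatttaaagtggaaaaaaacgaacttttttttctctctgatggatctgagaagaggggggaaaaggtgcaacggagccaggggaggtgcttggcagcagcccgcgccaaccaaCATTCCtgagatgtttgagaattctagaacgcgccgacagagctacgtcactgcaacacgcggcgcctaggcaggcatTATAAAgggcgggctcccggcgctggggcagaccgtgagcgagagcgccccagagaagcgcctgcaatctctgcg
Thbs4, chr13:92794769-92795068, minus strand: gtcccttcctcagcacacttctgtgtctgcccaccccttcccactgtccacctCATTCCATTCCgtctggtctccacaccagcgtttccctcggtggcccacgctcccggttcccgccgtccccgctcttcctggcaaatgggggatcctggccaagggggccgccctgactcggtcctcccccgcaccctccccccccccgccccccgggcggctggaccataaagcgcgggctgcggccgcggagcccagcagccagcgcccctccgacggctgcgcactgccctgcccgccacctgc
Postn, chr3:54360857-54361156, plus strand: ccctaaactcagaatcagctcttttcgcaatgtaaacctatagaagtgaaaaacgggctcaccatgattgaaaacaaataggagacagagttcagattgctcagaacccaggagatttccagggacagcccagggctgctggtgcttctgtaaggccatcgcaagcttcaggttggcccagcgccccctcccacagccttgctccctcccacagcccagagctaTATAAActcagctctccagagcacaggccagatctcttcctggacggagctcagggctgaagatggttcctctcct
The *Ccn1* window holds 1 TEAD match, as CATTCC on the sense strand, at position -103 from the start site, and TATAAA at -25. The *Thbs4* window holds 2 TEAD matches that overlap by 1 base, at -197 and -192. The downstream *Postn* start has TATAAA at -26. Of all 32851 windows of the same length, 14.7% hold GGAATG on either strand and 8.32% hold TATAAA on the sense strand. AP-1 letters (TGANTCA, either strand, in 7.81% of windows) and CRE letters (TGACGTCA, in 1.79%) were in none of the listed members' windows. A match describes letters in a window and not a bound site.

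After filters on genes, mitochondrial UMIs and predicted doublets, 21047 IgG and 22282 SPP1-nAb cells remained, with a median of 3615 and 4536.5 UMIs per cell, and 163 barcode sequences occurred in both libraries. The 32 clusters were joined into classes by marker genes. Mononuclear phagocytes were 55.6% of IgG and 66.9% of SPP1-nAb cells, Mesenchymal-like cells (*Pdgfra*, *Dcn*, *Dpt*) 11.8% and 4.56%, Tenocyte-like cells (*Tnmd*, *Scx*, *Fmod*) 3.21% and 1.95%, and Myogenic-like cells 11.9% and 7.80%. Median depth in Mesenchymal-like cells was 4861 UMIs in the IgG library and 7901 in the SPP1-nAb library, so levels are given as UMIs of the gene per 1000000 UMIs of the class (CPM) with exact Poisson 95% intervals. T or NK-like cells (47 and 82), taken to lack these genes, held 0 to 7 UMIs of any member per library.

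The 10 genes were carried by different cells, and the class that held the largest share of a gene's UMIs was the same in both libraries for all 10. *Postn* UMIs lay mainly in Mesenchymal-like cells, 84.7% and 80.8% of all *Postn* UMIs in the 2 libraries, IgG first. *Tnc* UMIs lay mainly in Schwann-like cells, 53.9% and 51.2%. *Thbs1* UMIs lay in phagocytes, 75.7% and 89.7%. These figures follow both how many cells a class has and how much each cell holds. *Thbs4* and *Comp*, the tendon members, lay in Tenocyte-like cells, with 76.5% and 81.6% of *Thbs4* and 64.3% and 61.0% of *Comp* UMIs. *Sparc* was in Mesenchymal-like cells, 72.7% and 70.6%, and *Thbs2* likewise, 58.4% and 69.2%. By level, though, *Thbs1*, *Thbs2*, *Ccn1* and *Ccn2* stood higher in Tenocyte-like cells, in both libraries, than in the class with most of their UMIs. *Thbs1* was at 1730 and 1214 CPM there, and *Thbs2* at 628 and 517 CPM, against 185 and 358 CPM in Mesenchymal-like cells. *Ccn1* and *Ccn2* were spread over Mesenchymal-like, Tenocyte-like and Myogenic-like cells, the first holding 49.4% and 45.6% of *Ccn1* and 45.0% and 58.3% of *Ccn2*. In Tenocyte-like cells *Ccn1* was at 832 and 561 CPM, against 256 and 232 CPM in Mesenchymal-like cells. *Ccn2* was at 1400 and 1037 CPM, against 288 and 638 CPM. *Fn1* was divided between phagocytes, 51.5% and 74.1%, and Mesenchymal-like cells, 43.5% and 20.9%. By level it stood higher in Mesenchymal-like cells, at 1522 and 1846 CPM, against 479 and 657 CPM in phagocytes. In the IgG library alone, *Sparc* was higher in Tenocyte-like cells (7350 CPM) than in Mesenchymal-like cells (5777 CPM). The same held for *Postn* in Schwann-like cells (1341 CPM), against 1274 CPM in Mesenchymal-like cells, by point estimates.

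**Figure D1:**
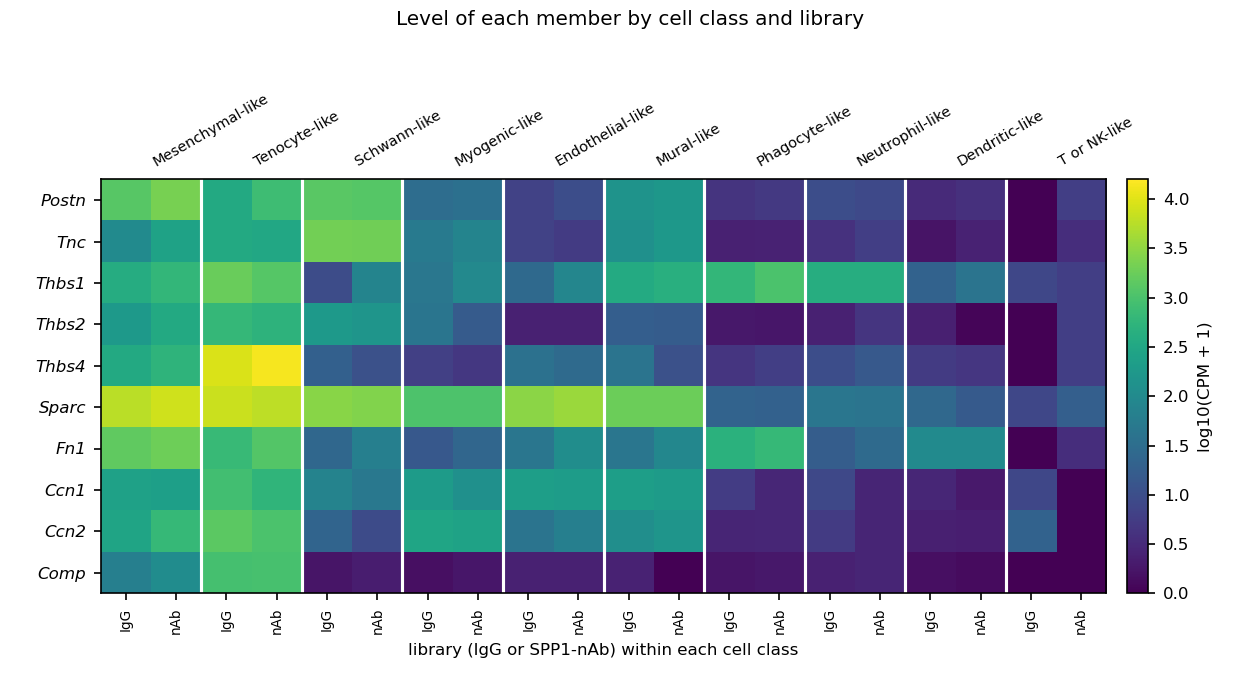
Heat map of the level of each of the 10 genes (rows) in each cell class and library (columns; IgG, and nAb for SPP1-nAb, 1 library each), with color giving log10(CPM + 1) and no error shown. *Thbs4* stands highest in Tenocyte-like cells in both libraries and *Tnc* in Schwann-like cells. *Thbs1* is at 595 and 1010.4 CPM in phagocytes, under the 1730 and 1214 CPM of Tenocyte-like cells.

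In Mesenchymal-like cells, whose markers are those of muscle fibroblasts and fibro-adipogenic progenitors, all 10 genes passed the floor of 100 UMIs over both libraries, and 7 were at least 1.5-fold higher in the SPP1-nAb library: *Postn*, *Tnc*, *Thbs1*, *Thbs2*, *Thbs4*, *Ccn2* and *Comp*. None was 1.5-fold lower. The same fold was passed upward by 5.57% of the 10404 genes over the floor in this class and downward by 6.76%. The median log2 ratio of SPP1-nAb over IgG was 0.68 over the members and -0.022 over all those genes. The members were chosen with earlier results of these data known, so this contrast is a description only.

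*Tnc* had the largest ratio of the members in this class, at 100.4 (94.99 to 106) CPM in IgG and 258 (247 to 269) CPM in SPP1-nAb, a log2 ratio of 1.36 (1.26 to 1.46). *Ccn2* was at 288 (279 to 297) CPM in IgG and 638 (621 to 656) CPM in SPP1-nAb, a log2 ratio of 1.15 (1.09 to 1.21). Its relative *Ccn1* was not part of this: it was at 256 (248 to 265) CPM in IgG and 232 (221 to 243) CPM in SPP1-nAb, a log2 ratio of -0.15 (-0.23 to -0.063). The pair of CCN genes thus stood apart within the class, although both were present in it and in the same clusters.

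*Postn* was at 1274 (1254 to 1293) CPM in IgG and 2169.7 (2137 to 2203) CPM in SPP1-nAb, a log2 ratio of 0.77 (0.74 to 0.80). Its UMIs were far more concentrated in the IgG library, where the 10% of Mesenchymal-like cells with most *Postn* held 83.9% of them against 48.9% in the SPP1-nAb library. These shares were not thinned, and median depth was 4861 and 7901 UMIs. The other members went the same way in this class, among them *Ccn1*, at 50.1% and 42.2%. The part of depth was not tested. Among the thrombospondins, *Thbs2* was at 185 (177 to 192) CPM in IgG and 358 (345 to 372) CPM in SPP1-nAb, a log2 ratio of 0.96 (0.88 to 1.04). *Thbs1* was at 397 (386 to 408) CPM in IgG and 599 (582 to 616) CPM in SPP1-nAb, a log2 ratio of 0.59 (0.54 to 0.65), just over the fold used here. *Thbs4* was equally close to that fold, at 360.4 (350.2 to 371) CPM in IgG and 543 (527 to 559) CPM in SPP1-nAb and a log2 ratio of 0.59 (0.53 to 0.65). Over the alternatives that gave a ratio, *Thbs1* was past the fold in 9 of 16 and *Thbs4* in 8 of 16. *Comp* was at 64.5 (60.2 to 69.0) CPM in IgG and 109 (102 to 117) CPM in SPP1-nAb, a log2 ratio of 0.76 (0.62 to 0.90).

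*Sparc* and *Fn1* had the smaller upward ratios. *Sparc* was at 5777 (5736 to 5819) CPM in IgG and 7901 (7839 to 7964) CPM in SPP1-nAb, a log2 ratio of 0.45 (0.44 to 0.47), and *Fn1* at 1522 (1501 to 1543) CPM in IgG and 1846 (1816 to 1876) CPM in SPP1-nAb, a log2 ratio of 0.28 (0.25 to 0.31). Both were higher in the SPP1-nAb library by more than counting error and by less than 1.5-fold. Marker levels moved beside these ratios. The summed level of the 7 tenocyte markers in Mesenchymal-like cells was 587 and 1171 CPM in the IgG and SPP1-nAb libraries, with none of the markers at 0, and the summed level of the 7 mesenchymal markers was 33734 and 31576 CPM. The part of the tenocyte markers' difference in the ratios of *Thbs4* and *Comp* was not tested.

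**Figure D2:**
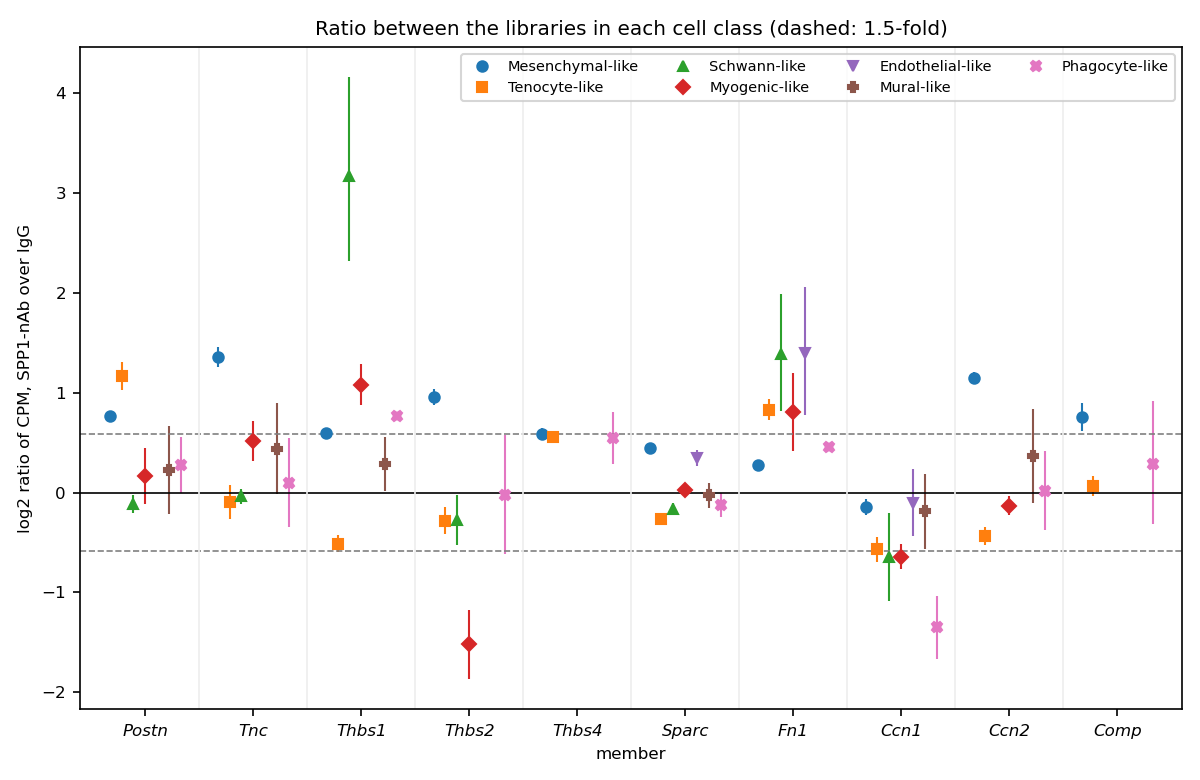
Log2 ratio of SPP1-nAb over IgG for each gene in each class, with exact binomial 95% intervals for counting error and dashed lines at 1.5-fold, over genes with at least 100 UMIs in the class (1 library per group). In Mesenchymal-like cells 9 of the 10 genes lie above 0, and *Ccn1* lies below 0 in all 7 classes.

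The Mesenchymal-like class held 5 clusters, which differed in the members they held. Cluster 7 (leading genes *Gdf10*, *Inmt*, *Fst*) was the largest, with 1289 IgG and 607 SPP1-nAb cells, and had the highest *Postn* level of the 5, 1848 (1816 to 1879) CPM in IgG and 2708 (2662 to 2754) CPM in SPP1-nAb. Cluster 18 (*Krtdap*, *Pi16*, *Sbsn*; 470 and 115 cells), with markers of adventitial fibroblasts, had the highest *Fn1* level, 2972 (2905 to 3039.6) CPM in IgG and 3967 (3844 to 4094) CPM in SPP1-nAb. Cluster 20 (*Fetub*, *Kcnb2*, *Cxcl14*; 358 and 151 cells) had the highest *Ccn2* level, 874 (835 to 915) CPM in IgG and 1794 (1723 to 1867) CPM in SPP1-nAb. Cluster 7 also had the highest *Thbs2*, *Sparc* and *Comp* levels of the 5 in both libraries, and cluster 20 the highest *Ccn1* level. For *Postn*, *Fn1* and *Ccn2*, each in the cluster where it stood highest, the SPP1-nAb level was the higher one.

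Clusters 22 (*Tenm2*, *Gpc3*, *Apod*) and 30 (*Sdk1*, *Opcml*, *Nova1*) were smaller and less even. *Postn* was 149.8 and 888 CPM in the IgG and SPP1-nAb libraries in cluster 22 and 580.1 and 344 CPM in cluster 30, so the direction turned in the latter. *Tnc* stood highest in cluster 30, at 684 (563 to 823) CPM in IgG and 661 (546 to 792) CPM in SPP1-nAb, where the libraries did not differ beyond counting error, and it was 149 and 337 CPM in cluster 7. Only 9.92% of the cells of cluster 30 held a *Tnc* UMI, against 16.1% in cluster 7, so its level rests on a few cells. The 66 and 55 cells of cluster 30 were the fewest of the 5 clusters. *Thbs1* was 294 and 622 CPM in cluster 7 but 1016 and 413 CPM in cluster 22, where SPP1-nAb was the lower library. By point estimates *Ccn2* was the only member higher in the SPP1-nAb library in all 5 clusters, with log2 ratios from 0.21 to 3.08, although in clusters 18, at 0.45 (-0.0025 to 0.90), and 30, at 0.21 (-0.99 to 1.44), it did not differ beyond counting error. *Comp* was higher in each of the 3 clusters with at least 20 of its UMIs. *Postn*, *Thbs2*, *Thbs4*, *Sparc* and *Fn1* were each higher in 4 of 5, again by point estimates.

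When the IgG proportions of the 5 clusters were applied to both libraries, 4 members remained past 1.5-fold: *Postn* at a log2 ratio of 0.66, *Tnc* at 1.16, *Thbs2* at 0.89 and *Ccn2* at 1.05. *Thbs1* stood at 0.52, *Thbs4* at 0.48 and *Comp* at 0.58. These last 3 genes were thus under the fold once the clusters had equal weight in both libraries.

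**Figure D3:**
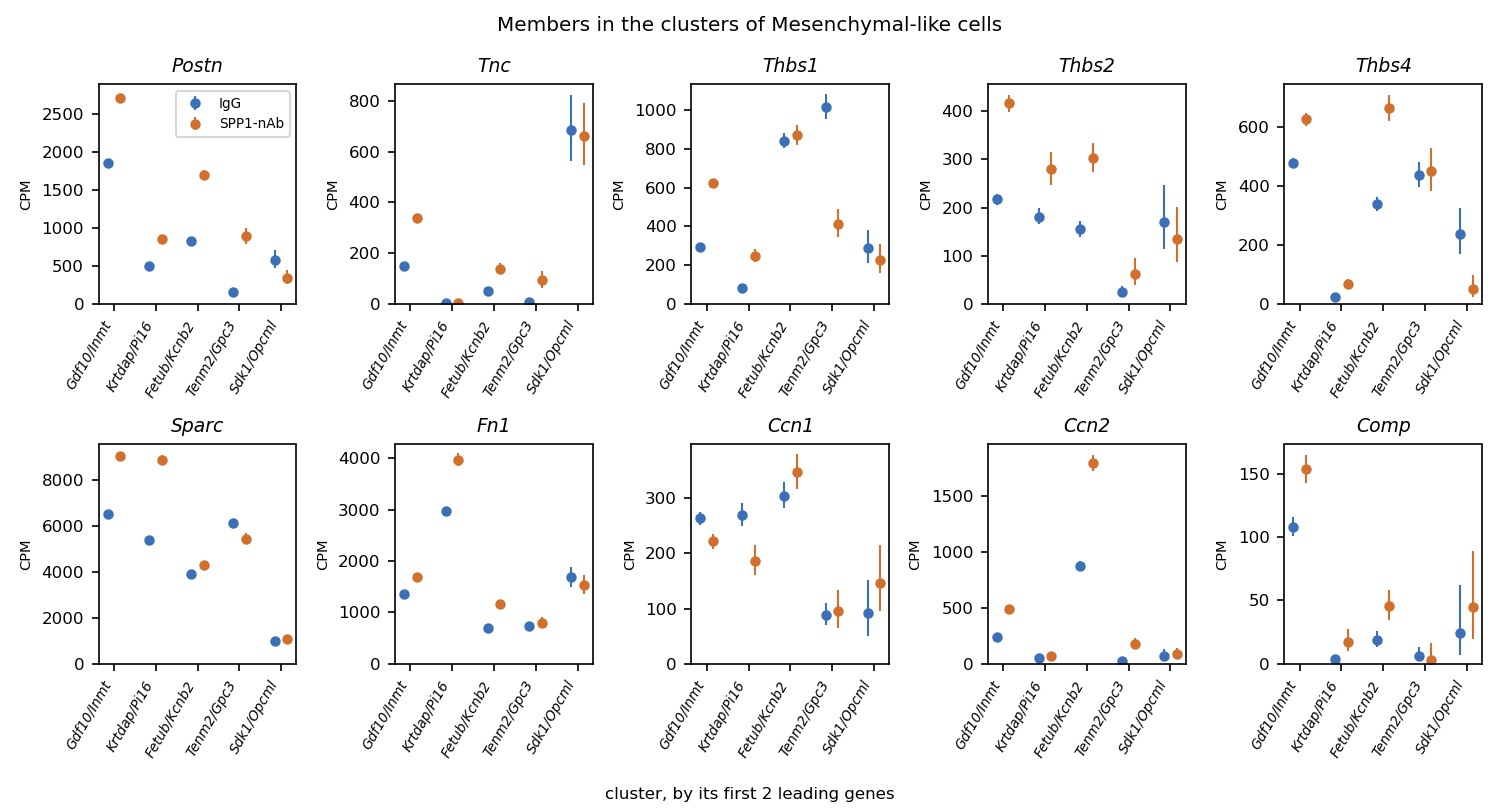
Level of each of the 10 genes (1 panel each, CPM on linear axes of different range) in the 5 clusters of Mesenchymal-like cells, named by their first 2 leading genes, in the IgG and SPP1-nAb libraries with exact Poisson 95% intervals. *Postn* is highest in cluster 7 (*Gdf10*, *Inmt*) and *Ccn2* in cluster 20 (*Fetub*, *Kcnb2*), and the *Ccn2* point lies higher in SPP1-nAb in all 5, with overlapping intervals in clusters 18 and 30.

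The share of cells with a UMI of a gene was compared after every cell was thinned to 2000 UMIs, which left out 224 IgG and 58 SPP1-nAb Mesenchymal-like cells. *Postn* was then seen in 26.1% (24.3 to 28.0) of cells in IgG and 60.7% (57.5 to 63.8) in SPP1-nAb, and unthinned in 30.8% and 69.6%. *Ccn2* was seen in 17.8% (16.3 to 19.5) of cells in IgG and 40.1% (37.0 to 43.3) in SPP1-nAb, and unthinned in 25.7% and 57.0%. At equal depth a larger share of Mesenchymal-like cells in the SPP1-nAb library thus held these transcripts. *Tnc* was seen in 5.29% (4.41 to 6.30) of cells in IgG and 12.8% (10.8 to 15.1) in SPP1-nAb, and unthinned in 7.83% and 19.5%. *Thbs2* was seen in 22.5% (20.8 to 24.3) of cells in IgG and 39.4% (36.3 to 42.6) in SPP1-nAb and *Thbs4* in 17.0% (15.5 to 18.6) of cells in IgG and 32.5% (29.6 to 35.6) in SPP1-nAb. *Ccn1* showed no such difference, at 31.1% (29.2 to 33.1) of cells in IgG and 30.4% (27.5 to 33.5) in SPP1-nAb. In T or NK-like cells, 35 IgG and 71 SPP1-nAb cells after thinning, *Postn* was in 0 and 1 cells, given here as the background.

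*Ccn1* and *Ccn2* transcripts met in the same cells. Of thinned Mesenchymal-like cells with a *Ccn1* UMI, 24.9% of IgG and 54.1% of SPP1-nAb cells also had a *Ccn2* UMI, against 14.6% and 34.0% of cells without one. *Tnc* was likewise found mostly with *Postn*: 17.4% of IgG and 19.6% of SPP1-nAb cells with a *Postn* UMI had *Tnc*, against 1.01% and 2.39% of the others. These are shares of cells in 1 library each, and they were not tested.

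In phagocytes, monocytes and macrophages that clear debris after nerve injury, *Thbs1* and *Fn1* were the members whose UMIs lay mostly in this class. *Thbs1* was at 595 (588 to 601) CPM in IgG and 1010.4 (1003 to 1017.5) CPM in SPP1-nAb, a log2 ratio of 0.76 (0.75 to 0.78). *Fn1* was at 479 (473 to 485) CPM in IgG and 657 (651 to 662) CPM in SPP1-nAb, a log2 ratio of 0.45 (0.43 to 0.48). Of the 10 members over the floor, *Thbs1* alone was 1.5-fold higher, where 2.52% of genes were, and *Ccn1* alone was 1.5-fold lower, where 8.38% were. *Ccn1* rested on 223 and 139 UMIs, at 4.54 and 1.78 CPM and a log2 ratio of -1.35 (-1.67 to -1.04). These UMIs were uneven over the phagocyte clusters: the one led by *Lyve1*, *Fcna* and *Cd163* held 144 and 70 UMIs, at 14.9 (12.6 to 17.5) CPM in IgG and 6.95 (5.42 to 8.79) CPM in SPP1-nAb. T or NK-like cells held 1 and 0 UMIs of *Ccn1*, at 6.74 (0.17 to 37.6) CPM in IgG and 0 (0 to 9.15) CPM in SPP1-nAb. Over the class, the phagocyte *Ccn1* level was thus not above this background beyond counting error.

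By its point estimate *Thbs1* was higher in the SPP1-nAb library in all 9 phagocyte clusters, and its level differed widely among them. The cluster led by *Cx3cr1*, *Ms4a7* and *Cxcl16* was at 89.7 (83.0 to 96.7) CPM in IgG and 369.7 (358 to 382) CPM in SPP1-nAb, a log2 ratio of 2.04 (1.92 to 2.16). The monocyte-type cluster led by *Gm9733*, *Hp* and *Ifitm6* was at 979.8 (955 to 1005) CPM in IgG and 1526 (1503 to 1549.9) CPM in SPP1-nAb. In the cluster led by *Rsad2* the libraries were nearly level, at 1185 (1161 to 1209.7) CPM in IgG and 1189 (1167 to 1212) CPM in SPP1-nAb. The resident macrophage cluster led by *Lyve1*, *Fcna* and *Cd163* was lowest in IgG after the cycling cluster, at 18.9 and 56.7 CPM. With the IgG proportions of the 9 clusters in both libraries the class ratio of *Thbs1* was 0.50, under the 1.5-fold line, and that of *Fn1* was 0.16.

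**Figure D4:**
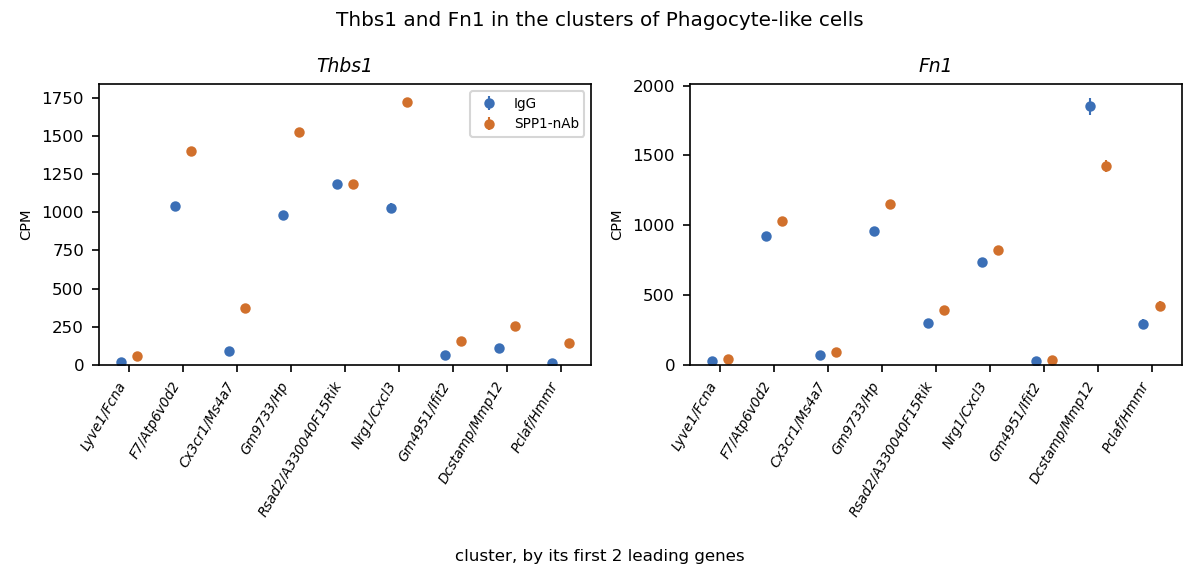
Level of *Thbs1* and *Fn1* (CPM, linear axes) in the 9 phagocyte clusters, named by their first 2 leading genes, in the IgG and SPP1-nAb libraries with exact Poisson 95% intervals, mostly smaller than the points. *Thbs1* is higher in SPP1-nAb in 8 clusters and level in the *Rsad2* cluster, at 1185 and 1189 CPM, and it is at 8.33 and 145 CPM in the cycling *Pclaf* cluster.

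By its point estimate *Fn1* was higher in the SPP1-nAb library in 8 of 9 phagocyte clusters, of which the one led by *Gm4951*, at a log2 ratio of 0.050 (-0.38 to 0.48), did not differ beyond counting error. The exception, led by *Dcstamp*, *Mmp12* and *Cd226*, was at 1852 (1791 to 1913) CPM in IgG and 1424 (1381 to 1468) CPM in SPP1-nAb. After thinning, *Thbs1* was seen in 29.1% (28.2 to 29.9) of cells in IgG and 45.3% (44.5 to 46.1) in SPP1-nAb, and unthinned in 34.0% and 54.1%. *Fn1* was seen in 27.3% (26.4 to 28.1) of cells in IgG and 39.1% (38.3 to 39.9) in SPP1-nAb, and unthinned in 34.2% and 51.0%. In T or NK-like cells *Thbs1* was seen in 1 cell of each library, 2.86% and 1.41%. Phagocytes with a *Thbs1* UMI more often had *Fn1* as well, 47.0% and 53.6% in the IgG and SPP1-nAb libraries, against 19.2% and 27.1% of the others. Neutrophil-like cells also held *Thbs1*, at 408 (361 to 458) CPM in IgG and 412 (383 to 444) CPM in SPP1-nAb, with no difference beyond counting error.

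In Tenocyte-like cells, which make tendon and myotendinous matrix, 2 of the 10 members were 1.5-fold higher in the SPP1-nAb library and none was 1.5-fold lower, where 6.13% of genes were higher and 3.58% lower. *Postn* was at 351 (324 to 380.0) CPM in IgG and 790.1 (747 to 836) CPM in SPP1-nAb, a log2 ratio of 1.17 (1.03 to 1.31). A few cells carried much of it, with 10 cells holding 47.5% of the class's *Postn* UMIs in IgG and 38.2% in SPP1-nAb. *Fn1* was at 677 (639 to 716) CPM in IgG and 1204 (1150.2 to 1259.8) CPM in SPP1-nAb, a log2 ratio of 0.83 (0.73 to 0.94). The summed phagocyte markers in these cells were 429 and 666 CPM. Without cells that held UMIs of 3 or more phagocyte markers the log2 ratio of *Fn1* was 0.78.

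The tendon members themselves were high in both libraries. *Thbs4* was at 9262 (9120.4 to 9405) CPM in IgG and 13673 (13490 to 13858) CPM in SPP1-nAb, a log2 ratio of 0.56 (0.53 to 0.59). *Comp* was at 902 (859 to 948) CPM in IgG and 945 (897 to 994) CPM in SPP1-nAb, a log2 ratio of 0.066 (-0.037 to 0.17). Several members were lower in the SPP1-nAb library in this class, although by less than 1.5-fold. *Ccn1* was at 832 (790.1 to 876) CPM in IgG and 561 (524 to 599) CPM in SPP1-nAb, *Ccn2* at 1400.0 (1345 to 1456) CPM in IgG and 1037 (987 to 1089) CPM in SPP1-nAb and *Thbs1* at 1729.8 (1669 to 1792) CPM in IgG and 1214 (1160.2 to 1270.3) CPM in SPP1-nAb. *Thbs2*, at a log2 ratio of -0.28 (-0.41 to -0.15), and *Sparc*, at -0.26 (-0.30 to -0.23), were lower as well. For *Ccn2*, *Thbs1*, *Thbs2* and *Sparc* the direction was therefore opposite to that in Mesenchymal-like cells. *Tnc*, at -0.095 (-0.27 to 0.076), did not differ beyond counting error. The median log2 ratio in this class was -0.18 over the members and 0.028 over all genes over the floor.

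In Schwann-like cells, the glia of the muscle's nerve branches, 7 members passed the floor, and *Tnc*, *Postn* and *Sparc* differed little between the libraries. *Tnc* was at 2034 (1960.0 to 2109.9) CPM in IgG and 1979.8 (1914 to 2047) CPM in SPP1-nAb, a log2 ratio of -0.039 (-0.11 to 0.033). *Postn* was at 1341 (1282 to 1403) CPM in IgG and 1241 (1189 to 1295) CPM in SPP1-nAb, a log2 ratio of -0.11 (-0.20 to -0.022). *Sparc* was at 2820.3 (2733 to 2909) CPM in IgG and 2515 (2441 to 2591) CPM in SPP1-nAb. After thinning, 53.5% of IgG and 60.5% of SPP1-nAb Schwann-like cells held both *Postn* and *Tnc* transcripts.

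In the same cells *Thbs1* and *Fn1* were 1.5-fold higher and *Ccn1* was 1.5-fold lower, 2 and 1 of 7 members, beside 1.97% and 2.49% of genes. *Thbs1* rested on 12 and 133 UMIs, of which 10 cells of the SPP1-nAb library held 85.7% and a single cell 58. The summed phagocyte markers were 90.4 and 196 CPM in the IgG and SPP1-nAb Schwann-like cells. Without cells holding UMIs of 3 or more phagocyte markers, the log2 ratio of *Thbs1* went from 3.17 to 0.81 and that of *Fn1* from 1.38 to 0.77. *Ccn1* was at 73.3 (59.8 to 88.9) CPM in IgG and 46.9 (37.3 to 58.3) CPM in SPP1-nAb.

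In Myogenic-like cells, satellite cells and myoblasts that rebuild fibers, 8 members passed the floor, with 2 higher and 2 lower by 1.5-fold, beside 6.89% and 4.03% of genes. *Thbs2* was at 42.7 (37.8 to 48.0) CPM in IgG and 14.9 (12.1 to 18.3) CPM in SPP1-nAb, a log2 ratio of -1.52 (-1.87 to -1.17), the opposite of its direction in Mesenchymal-like cells. *Thbs1* was at 44.7 (39.7 to 50.1) CPM in IgG and 94.5 (87.1 to 102) CPM in SPP1-nAb, a log2 ratio of 1.08 (0.88 to 1.29). *Fn1* was at 13.5 (10.8 to 16.6) CPM in IgG and 23.6 (20.0 to 27.7) CPM in SPP1-nAb. Its log2 ratio ranged from 0.27 to 0.91 over the alternatives and was past the fold in 14 of 16. T or NK-like cells held *Fn1* at 0 (0 to 24.9) CPM in IgG and 2.48 (0.063 to 13.8) CPM in SPP1-nAb. The summed phagocyte markers in Myogenic-like cells were 141 and 154 CPM, and their part in the *Thbs1* and *Fn1* ratios was not tested. *Ccn1* was at 200.4 (189.7 to 212) CPM in IgG and 129 (119.9 to 138) CPM in SPP1-nAb, a log2 ratio of -0.64 (-0.77 to -0.51). *Ccn2* did not differ by 1.5-fold over the class, at 289.6 (277 to 303) CPM in IgG and 264 (252 to 277) CPM in SPP1-nAb, yet its clusters diverged. It was 97.1 and 331 CPM in the cluster led by *Nppc*, *Gal* and *Edn3* and 199 and 27.3 CPM in the cycling cluster led by *Cenpf*, *Ube2c* and *Prc1*.

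In the vessel cells few members reached the floor or the fold. Endothelial-like cells had 3 members over the floor, and *Fn1* alone was past 1.5-fold, at 43.2 (29.1 to 61.6) CPM in IgG and 114 (90.3 to 142) CPM in SPP1-nAb, beside 2.65% of genes higher and 3.78% lower. It rested on 30 and 79 UMIs, so it passed the floor only as a sum, to which the SPP1-nAb library gave most. *Sparc* was at 2948 (2822 to 3078) CPM in IgG and 3748 (3605 to 3895) CPM in SPP1-nAb, a log2 ratio of 0.35 (0.26 to 0.43). Mural-like cells, pericytes and smooth muscle, had 6 members over the floor and none past 1.5-fold, beside 3.01% and 2.67% of genes. *Sparc* was at 1808 (1706 to 1914) CPM in IgG and 1775 (1659.9 to 1895) CPM in SPP1-nAb.

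*Ccn1* was the member whose point estimate was lower in the SPP1-nAb library in all 7 classes, although in Endothelial-like cells the log2 ratio turned to 0.014 when only cells with less than 5% mitochondrial UMIs were kept. Within classes it was uneven. Point estimates were higher in 3 of 5 Mesenchymal-like, 1 of 4 Myogenic-like and 1 of 2 Mural-like clusters with at least 20 UMIs. Beyond counting error *Ccn1* was higher in the *Fetub* cluster, at log2 0.19 (0.017 to 0.36), and the *Nppc* cluster, at 0.46 (0.17 to 0.75). *Ccn1* was lower in each of 5 such phagocyte clusters and 2 Schwann-like clusters. Its gene is known as an immediate early gene, and 4 such genes chosen after their values were seen (*Fos*, *Jun*, *Egr1*, *Atf3*) had a summed level lower in the SPP1-nAb library in the same 7 classes. Their log2 ratio was -0.38 in Mesenchymal-like, -0.87 in Myogenic-like, -0.89 in Phagocyte-like and -0.11 in Schwann-like cells. Such genes respond to tissue handling as well as to signals, and their part in the *Ccn1* ratio was not tested.

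Summed over all cells of a library, the members gave another picture, since the classes that hold most of them were smaller shares of the SPP1-nAb library. Over the whole library only *Thbs1*, at a log2 ratio of 0.79 (0.77 to 0.81), and *Fn1*, at 0.20 (0.19 to 0.22), were above the IgG level. *Sparc* stood at -0.64 (-0.65 to -0.62), *Ccn1* at -1.16 (-1.22 to -1.11) and *Postn* at -0.29 (-0.32 to -0.27). When the class shares of the IgG library were applied to both, 9 of the 10 were above it, *Sparc* at 0.32, *Postn* at 0.71 and *Ccn2* at 0.54, and *Ccn1* alone stayed below at -0.36. The share of all genes above the IgG level was not computed for either comparison. These counts therefore do not show whether the members differ from other genes. The class shares depend on the sort and on cell recovery as well as on the muscle, and these cannot be told apart.

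**Figure D5:**
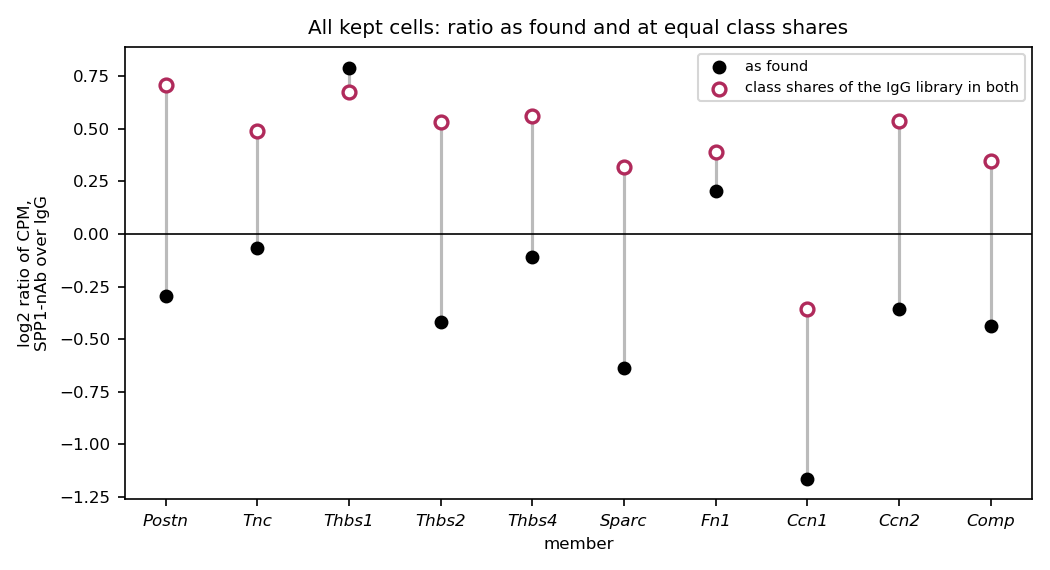
Log2 ratio of SPP1-nAb over IgG for each gene over all kept cells as found, and with the class shares of the IgG library applied to both (1 library per group). As found, 2 of 10 genes lie above 0, and at equal class shares 9 of 10 do, with no share over all genes computed.

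A wider list held 17 other matricellular or related genes. In Mesenchymal-like cells 14 of the 17 passed the floor, 4 were 1.5-fold higher and 3 lower, with a median log2 ratio of 0.051. Of all genes over the floor there, 5.57% were higher and 6.76% lower. Those higher were *Ccn4* at 1.43, *Ccn5* at 1.25, *Cthrc1* at 0.84 and *Spp1*, the target of the antibody, at 0.70. Those lower were *Tnn* at -0.92, *Tgfbi* at -0.70 and *Ccn3* at -0.63. The wider list thus moved both ways in this class, *Tnn* against *Tnc* and *Ccn3* against *Ccn2* within their families. *Spp1* itself had log2 ratios of 0.48 in phagocytes, 1.55 in Myogenic-like cells and -1.29 (-1.73 to -0.85) in Schwann-like cells, and in Tenocyte-like cells -0.22 (-0.76 to 0.32), an interval that spans 0. In T or NK-like cells, the background class for the members, *Spp1* was at 101 and 154 CPM, IgG first. By point estimates that was above the Mesenchymal-like (58.9 and 96.1), Schwann-like (94.6 and 38.8), Tenocyte-like (39.6 and 34.0) and Myogenic-like (51.3 and 149.8) levels. The part of background in the *Spp1* ratios of these 4 classes was not tested. In phagocytes, 7 of the list passed, none was higher and 2 were lower, beside 2.52% and 8.38% of genes. Elsewhere 10 passed in Tenocyte-like cells (1 higher, 2 lower), beside 6.13% and 3.58% of genes. In Schwann-like cells 5 passed (0 higher, 2 lower), beside 1.97% and 2.49%, and in Myogenic-like cells 8 passed (2 higher, 2 lower), beside 6.89% and 4.03%. In Endothelial-like cells 1 passed (0 higher, 0 lower), beside 2.65% and 3.78%, and in Mural-like cells 2 passed (0 higher, 0 lower), beside 3.01% and 2.67%.

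Of 14 receptors for these proteins, 13 passed the floor in Mesenchymal-like cells, with 1 higher, *Stab1* at a log2 ratio of 0.92, 1 lower, *Itga8* at -1.63, and a median of 0.071. In phagocytes all 14 passed and 2 were higher, the integrin subunit *Itgb3* at 1.22 and the syndecan *Sdc1* at 0.83, while 1 was lower, *Itga8* at -0.84 (-1.26 to -0.43). The *Cd47* and *Cd36* receptors of thrombospondin had log2 ratios of -0.20 and -0.27 there. Elsewhere 9 passed in Tenocyte-like cells (0 higher, 1 lower), 7 passed in Schwann-like cells (0 higher, 1 lower), 10 passed in Myogenic-like cells (1 higher, 2 lower), 4 passed in Endothelial-like cells (0 higher, 0 lower) and 6 passed in Mural-like cells (0 higher, 1 lower). The shares of all genes past the fold in each class, given with the wider list, stand beside these receptor counts as well. In Mesenchymal-like cells they were 5.57% and 6.76%, and in phagocytes 2.52% and 8.38%.

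Across the 32 clusters, both libraries together, the members paired in a few ways by Pearson's r of log2(CPM + 10), a description with no test because the clusters share libraries and depth. *Sparc* and *Ccn1* had r = 0.94, *Ccn1* and *Ccn2* 0.92, *Postn* and *Thbs2* 0.91, and *Thbs4* and *Comp* 0.91. *Thbs1* was nearest to *Fn1* at 0.72 and *Tnc* and *Thbs1* were least alike at 0.052. Outside the lists, the genes most like each member were *Aebp1* (0.96) for *Postn*, *Fign* (0.90) for *Tnc*, *Gm13986* (0.74) for *Thbs1*, *Evc2* (0.93) for *Thbs2* and *Kazald1* (0.94) for *Thbs4*. They were *Serpinh1* (0.99) for *Sparc*, *C3* (0.78) for *Fn1*, *Amotl2* (0.96) for *Ccn1*, *Cys1* (0.92) for *Ccn2* and *1700024B18Rik* (0.97) for *Comp*. *Serpinh1*, nearest to *Sparc*, encodes a collagen chaperone.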

How the data were processed

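Cells of 2 libraries, 1 per group, were analysed from the filtered matrices of UMI counts per gene and barcode that the authors deposited, with no normalization. Per the labels, reads were processed with Cell Ranger 8.0.0 against GRCm39, whereas the header of the matrices names Cell Ranger 9.0.1. Groups came from the treatment label. A barcode was kept if over 200 genes were detected and mitochondrial genes gave under 10% of its UMIs, and the 10% of barcodes with the highest score against simulated doublets were removed. After each cell was brought to a total of 10000 and logged, 2000 highly variable genes, chosen with the lists below left out, gave 30 principal components, which were integrated between the libraries with Harmony, written for this purpose in numpy, and clustered by Leiden at resolution 1 on a shared neighbor graph of 20 neighbors. A cluster was named from fixed marker lists where at least 3 markers were raised 1.5-fold and seen in 20% of its cells. A cluster that no other list named was called phagocyte where 5 of 8 phagocyte markers were seen in 20% of its cells, with no fold required. These thresholds were settled after the clusters had been seen. One cluster of low depth stayed unnamed. The members and lists were chosen with earlier results of these data known.

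Raw UMIs were summed per class and library and given as CPM. Intervals are exact Poisson for levels, exact binomial (Clopper-Pearson) for shares, and exact binomial for ratios, at 95%. With 1 library per group there was no test and no p-value. A ratio of 1.5-fold or more is described where a gene had at least 100 UMIs in the class over both libraries, beside the share of all such genes past that fold; single clusters needed 20 UMIs. Named genes are all 10 members, the lists of 17 related genes and 14 receptors, the gene most like each member among those with at least 500 UMIs, and the 3 genes with the largest fold that lead a cluster. *Fos*, *Jun*, *Egr1* and *Atf3* were added after values had been seen. On counts simulated from the Mesenchymal-like class over 10404 genes, 95.9% of true ratios lay inside their interval and 0.470% of unchanged genes passed the fold. The simulated counts varied by counting error alone. These figures check the arithmetic and give no rate of false calls between real libraries.

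Total UMIs were 97607674 in the IgG and 127719916 in the SPP1-nAb library, over 23779 and 25069 barcodes; precision follows the UMIs of a gene in a class. Alternatives covered cell filters, doublets, clustering, integration, gating of single cells by markers, background subtraction, the floor, the fold and thinning. The analysis used Python 3.11.15, numpy 2.4.6, scipy 1.17.1, scikit-learn 1.9.0, igraph 0.11.9, leidenalg 0.10.2 and matplotlib 3.10.9. Gene coordinates came from GENCODE for GRCm39, and promoter windows from RefSeq for GRCm38.p6.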

Additional observations from a re-analysis of the deposited data

Results flagged for a closer look

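*Thbs2* ran in opposite directions in 2 cell classes under the same comparison of libraries. Its log2 ratio of SPP1-nAb over IgG was 0.96 in Mesenchymal-like cells and -1.52 in Myogenic-like cells, and with 1 library per group the difference was not tested. The Myogenic-like value rested on 278 and 95 UMIs and ranged from -2.10 to -1.13 over the alternatives, and the Mesenchymal-like value from 0.86 to 1.13. By point estimates *Thbs2* was lower in the SPP1-nAb library in all 3 Myogenic-like clusters with at least 20 of its UMIs. In the cluster led by *Hs6st3*, at -0.79 (-1.83 to 0.23), it did not differ beyond counting error. The summed mesenchymal markers in Myogenic-like cells were 1390.0 and 1095 CPM in the IgG and SPP1-nAb libraries, with none of the 7 at 0, and their part in the value was not tested.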

How the results depend on the processing

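All 19 ratios past 1.5-fold kept their sign under each alternative that gave them a value; 5 alternatives (shared barcodes, cells with phagocyte markers, cells with at least 2000 UMIs, means over cells, equal cluster proportions) were chosen after seeing the data. The counts moved more. The share of all genes past the fold was computed for the main setting only. The counts under the alternatives therefore do not show whether the members moved differently from other genes. In Mesenchymal-like cells, 7 members higher became 2 at a fold of 2, 4 at IgG cluster proportions, 5 with no doublets removed, less than 5% mitochondrial UMIs or phagocyte-marker cells left out, and 6 with gated cells, more than 500 genes, resolution 2, list genes allowed among variable genes, background subtracted, at least 2000 UMIs or means over cells, and stayed at 7 under the others. In Tenocyte-like cells, 2 higher became 1 at a fold of 2, and 0 lower became 1 with less than 5% mitochondrial UMIs or with ratios centred on the class median. *Thbs4*, under the fold there in the main setting, passed it upward in 5 of the 15 alternatives that gave a ratio. It then counted beside *Postn* and *Fn1*, which passed in 15 of 15. In Schwann-like cells, 2 higher became 0 with cells gated one by one and 1 without cells with phagocyte markers, although *Thbs1* (log2 1.44 and 0.81) and *Fn1* (0.98 and 0.77) stayed past the fold. These drops came from the floor, since a member under 100 UMIs is not counted. In the same class 1 lower became 0 with gated cells, 20% doublets removed, more than 500 genes, less than 5% mitochondrial UMIs, the T or NK-like level subtracted, a fold of 2, at least 2000 UMIs, or IgG cluster proportions. In Myogenic-like cells, 2 higher became 1 with gated cells, no doublets removed or a fold of 2, and 4 with 20% doublets removed, and 2 lower became 1 with 20% doublets removed, a fold of 2, means over cells or IgG cluster proportions. In Endothelial-like cells, 1 higher became 2 with no doublets removed, 3 at a floor of 50 UMIs and 0 with at least 2000 UMIs. In Mural-like cells, 0 higher became 1 with gated cells, no or 20% doublets removed, background subtracted, a floor of 50 or phagocyte-marker cells left out, and 3 with means over cells. In phagocytes, 1 higher became 3 with gated cells, 2 when centred, with at least 2000 UMIs or with means over cells, and 0 at a fold of 2. With background subtracted 1 lower became 2, which were *Thbs4*, at a log2 ratio of -4.50, and *Sparc*, at -3.07. The T or NK-like levels subtracted rested on 0 and 2 UMIs of *Thbs4* and 1 and 7 of *Sparc*, IgG first. Without subtraction the log2 ratios were 0.55 (0.28 to 0.81) and -0.12 (-0.24 to -0.0080). *Ccn1* gave no ratio in phagocytes with background subtracted, since its IgG level was under that of T or NK-like cells. Over whole libraries, 2 members above IgG became 9 at IgG class shares, where *Sparc* reversed to 0.32. The cause of the other shifts was not tested. The widest ranges among ratios past the fold were 0.81 to 5.32 for *Thbs1* in Schwann-like cells and 0.88 to 2.36 for *Fn1* in Endothelial-like cells.

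No paired analysis was possible because each group has 1 library, and for the same reason no library could be left out. Members with few UMIs in a class were left out of the counts. *Comp*, *Thbs4* and *Ccn2* were under the floor in Schwann-like cells, in which *Tnc* had 2858 and 3416 UMIs, IgG first. Thinned to 2000 UMIs, 11 of 20 pairs of gene and class had the larger share of cells in the SPP1-nAb library, against 14 at 1000 UMIs and unthinned. The same was not computed for other genes.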
